A study of Homo sapiens with 12 samples.

Results

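The DNA replication machinery outside the MCM proteins was followed through the loss of the RNA-binding protein IGF2BP3 in acute myeloid leukemia cells, as 40 genes of the 32287 listed in any of 4 deposited comparisons. The genes were taken by symbol and cover 8 roles at the replication fork, from origin licensing to histone deposition. All 40 were listed in each comparison. In MOLM13 all of them could be tested, and in U937 39 could, since RNASEH2A had no adjusted p there.

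RNA sequencing gave 12 libraries in 6 groups of 2. MOLM13 cells, a leukemia line with monocytic features, received lentivirus with shBP3-2 or shBP3-1, both hairpins against IGF2BP3, or with the control hairpin shNS. All 3 U937 groups, from a monocytic line, carried IGF2BP3 fused to mAID, a degron tag that lets 5-Ph-IAA trigger destruction of the fused protein. These U937 BP3-mAID cells were not treated (NT) or were given 5-Ph-IAA for 6 h or 24 h. No source used here says whether the lines are single clones or how long after infection MOLM13 was harvested, and the IGF2BP3 protein itself is not measured in these data. The molecule is labelled total RNA for MOLM13 and polyA RNA for U937, while a shared protocol text describes capture of mRNA on beads.

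Before replication starts, the origin recognition complex, CDC6 and CDT1 load the MCM helicase onto DNA, and the kinase of CDC7 and DBF4, with CDC45 and the GINS complex, turns it into an active helicase. Primase and the polymerases then copy the DNA, held on it by the ring-shaped clamp PCNA that the RFC complex loads, while RPA covers single strands and FEN1 and LIG1 join the fragments of the lagging strand. In dividing cells many of these genes are transcribed mainly around the entry into S phase, in part through E2F transcription factors, so in bulk RNA fewer cells in S phase and less RNA per cell cannot be told apart.

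Each deposited table sets 1 treated group against its control and gives a DESeq2 base mean (the mean of the read counts after division by library size factors), a log2 fold change and its adjusted p, but nothing for single libraries. The groups are therefore described by mean normalised reads, which follow from the base mean and the fold change, and the spread between libraries enters through the 95% intervals, worked out from the authors' p. Nothing in the labels ties libraries of a group to separate cultures, and the spread behind a p may be technical. A gene counts as lower or higher at an adjusted p under 0.05 over all genes tested in its table. Both comparisons of a line share their 2 control libraries and are therefore given side by side. The base means summed to 22028570 (shBP3-2) and 22544563 (shBP3-1) in MOLM13 and to 11826946 (6 h) and 12360751 (24 h) in U937, and levels are not compared between the lines. IGF2BP3 mRNA stood at 48.8% of the shNS level with shBP3-2 and at 40% with shBP3-1. In U937 it stood at 83.1% of the NT level after 6 h and 111.3% after 24 h, with adjusted p of 0.17 and 0.25 in the authors' deposited tables. The myeloid genes PTPRC, CD33, SPI1, CEBPA and LYZ were present in both lines (base means from 241.1 for LYZ in U937 upward). The myeloid gene CSF1R had base means of 1236.2 and 1311.9 in MOLM13 and of 40.5 and 43.8 in U937. MPO had base means of 239.8 and 281.8 in MOLM13 and of 1.2 and 1.65, near 0, in U937. CD3D, CD3E, CD79A and MS4A1 (lymphoid) and HBB and HBA1 (erythroid) were not listed or stayed at or below a base mean of 10.9 (CD79A in U937). These base means are all from the authors' deposited tables.

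The promoters below were chosen among the genes with a RefSeq promoter entry. RPA2 (-0.80 under shBP3-2) has no entry and would otherwise rank above PRIM2 (-1.16). Among genes with an entry, the promoters belong to those with the lowest (RNASEH2A, DTL, CDC45) and the highest (DBF4, PRIM2) log2 fold change under shBP3-2. Those of PCNA and CDC7 were added, the lowest and the highest at 24 h among genes with the E2F letters defined below. Each sequence is the 250 bases before a RefSeq transcription start, from GRCh38.p14, written 5′ to 3′ along the gene. Capitals mark the E2F letters TTTCCCGC, TTTGGCGC, TTTCGCGC and TTTGCCGC and the box CCAAT, searched on both strands.
RNASEH2A (chr19:12806334-12806583, plus strand): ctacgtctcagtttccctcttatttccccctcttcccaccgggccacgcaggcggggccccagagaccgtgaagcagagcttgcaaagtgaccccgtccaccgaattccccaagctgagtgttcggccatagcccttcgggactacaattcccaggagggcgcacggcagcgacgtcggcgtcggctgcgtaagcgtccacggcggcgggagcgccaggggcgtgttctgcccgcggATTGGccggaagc
DTL (chr1:212035498-212035747, plus strand): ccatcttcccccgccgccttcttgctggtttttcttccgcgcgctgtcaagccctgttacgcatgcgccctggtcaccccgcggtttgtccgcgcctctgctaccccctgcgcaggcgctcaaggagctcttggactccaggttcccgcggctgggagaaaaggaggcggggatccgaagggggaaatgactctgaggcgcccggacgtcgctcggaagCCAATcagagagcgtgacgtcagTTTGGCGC
CDC45 (chr22:19479216-19479465, plus strand): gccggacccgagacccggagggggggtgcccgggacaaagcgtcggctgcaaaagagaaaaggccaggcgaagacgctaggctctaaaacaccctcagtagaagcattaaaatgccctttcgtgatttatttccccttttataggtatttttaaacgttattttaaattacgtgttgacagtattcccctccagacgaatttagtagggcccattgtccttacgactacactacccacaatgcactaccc
DBF4 (chr7:87876243-87876492, plus strand): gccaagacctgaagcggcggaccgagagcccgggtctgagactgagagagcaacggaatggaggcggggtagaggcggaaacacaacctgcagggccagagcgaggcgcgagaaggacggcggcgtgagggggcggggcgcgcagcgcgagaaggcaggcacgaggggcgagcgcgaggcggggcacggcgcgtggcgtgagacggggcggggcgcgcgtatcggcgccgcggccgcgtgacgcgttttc
PRIM2 (chr6:57314555-57314804, plus strand): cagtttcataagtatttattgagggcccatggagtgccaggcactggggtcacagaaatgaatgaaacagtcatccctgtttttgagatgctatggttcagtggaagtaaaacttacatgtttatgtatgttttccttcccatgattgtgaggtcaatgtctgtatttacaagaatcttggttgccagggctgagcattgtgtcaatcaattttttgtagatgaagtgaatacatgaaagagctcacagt
PCNA (chr20:5126623-5126872, minus strand): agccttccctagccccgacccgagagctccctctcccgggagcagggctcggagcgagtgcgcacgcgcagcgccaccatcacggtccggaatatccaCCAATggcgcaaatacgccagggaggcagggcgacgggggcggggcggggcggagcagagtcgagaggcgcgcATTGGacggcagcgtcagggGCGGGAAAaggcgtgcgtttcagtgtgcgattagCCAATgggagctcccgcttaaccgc
CDC7 (chr1:91500862-91501111, plus strand): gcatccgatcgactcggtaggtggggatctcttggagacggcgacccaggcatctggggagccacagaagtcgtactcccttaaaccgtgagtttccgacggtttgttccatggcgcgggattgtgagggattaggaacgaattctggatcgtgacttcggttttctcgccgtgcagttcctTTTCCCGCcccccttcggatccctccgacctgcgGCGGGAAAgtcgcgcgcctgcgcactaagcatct

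In the DTL promoter the E2F letters end at the base before the start and a CCAAT box precedes them. The PCNA promoter holds 1 match to the E2F letters and 3 to CCAAT. CDC7 has 2 RefSeq starts, and the window shown, before the downstream one, holds 2 matches to the E2F letters. The windows of CDC45, DBF4 and PRIM2 shown here hold none of these letters, and that of RNASEH2A a CCAAT box. CDC45 has 3 RefSeq promoters, and CCAAT is found in a window that is not shown. Against the GENCODE 29 annotation, the PRIM2 window lies directly before the gene, and the other windows shown overlap the gene's annotated span. Entries were found for 36 of the 40 genes, with 44 promoters in all, and POLD3, GINS4, RPA2 and RPA3 had none. E2F letters were in 12 of the 44 promoters (27.3%), against 2.79% of 35116 promoters of all genes, and CCAAT was in 23 (52.3%), against 32%. No match to the E2F letters overlapped a match to CCAAT. A further motif, TTTGAA, the core letters of the cell-cycle homology region known from mitotic genes, was in none of the 44 promoters, against 13.3% of all promoters and 7 of 12 promoters of a list of mitotic genes. A match describes letters in a window and shows no binding. Other letters and the bases after the start were not searched, so a gene without a match may still have an E2F site. The genes with E2F letters and those without had nearly the same median log2 fold change: -2.21 and -2.17 with shBP3-2, -1.06 and -0.96 with shBP3-1, 0.10 and 0.08 at 6 h and -0.81 in both sets at 24 h (12 genes with the letters and 24 without, 23 of them tested in U937).

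With shBP3-2 in MOLM13, all 40 replication genes were lower than with shNS, where 22.1% of all genes tested were lower and 19.4% higher. Their median log2 fold change was -2.07, against 0.02 over all genes, and 38 were lower and stood below 50% of the shNS level (7.77% of all genes) and 22 below 25% (2.49% of all genes). With shBP3-1, 37 of the 40 were lower (16% of all genes were lower and 17.7% higher), with a median of -0.95 against -0.01 over all genes, and 15 of the lower genes stood below 50% of the shNS level (3.49% of all genes). The 3 others were GMNN, DBF4 and RNASEH2A, and no gene of the 40 had a positive log2 fold change with either hairpin in the authors' deposited tables. The difference between the hairpins was tested for each gene as the difference of its log2 fold changes: 39 of the 40 were lower with shBP3-2 than with shBP3-1 (18.2% of all genes were lower and 9.11% higher), with a median difference of -1.13. The shared shNS libraries make the standard error of this difference too large.

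**Figure D1:**
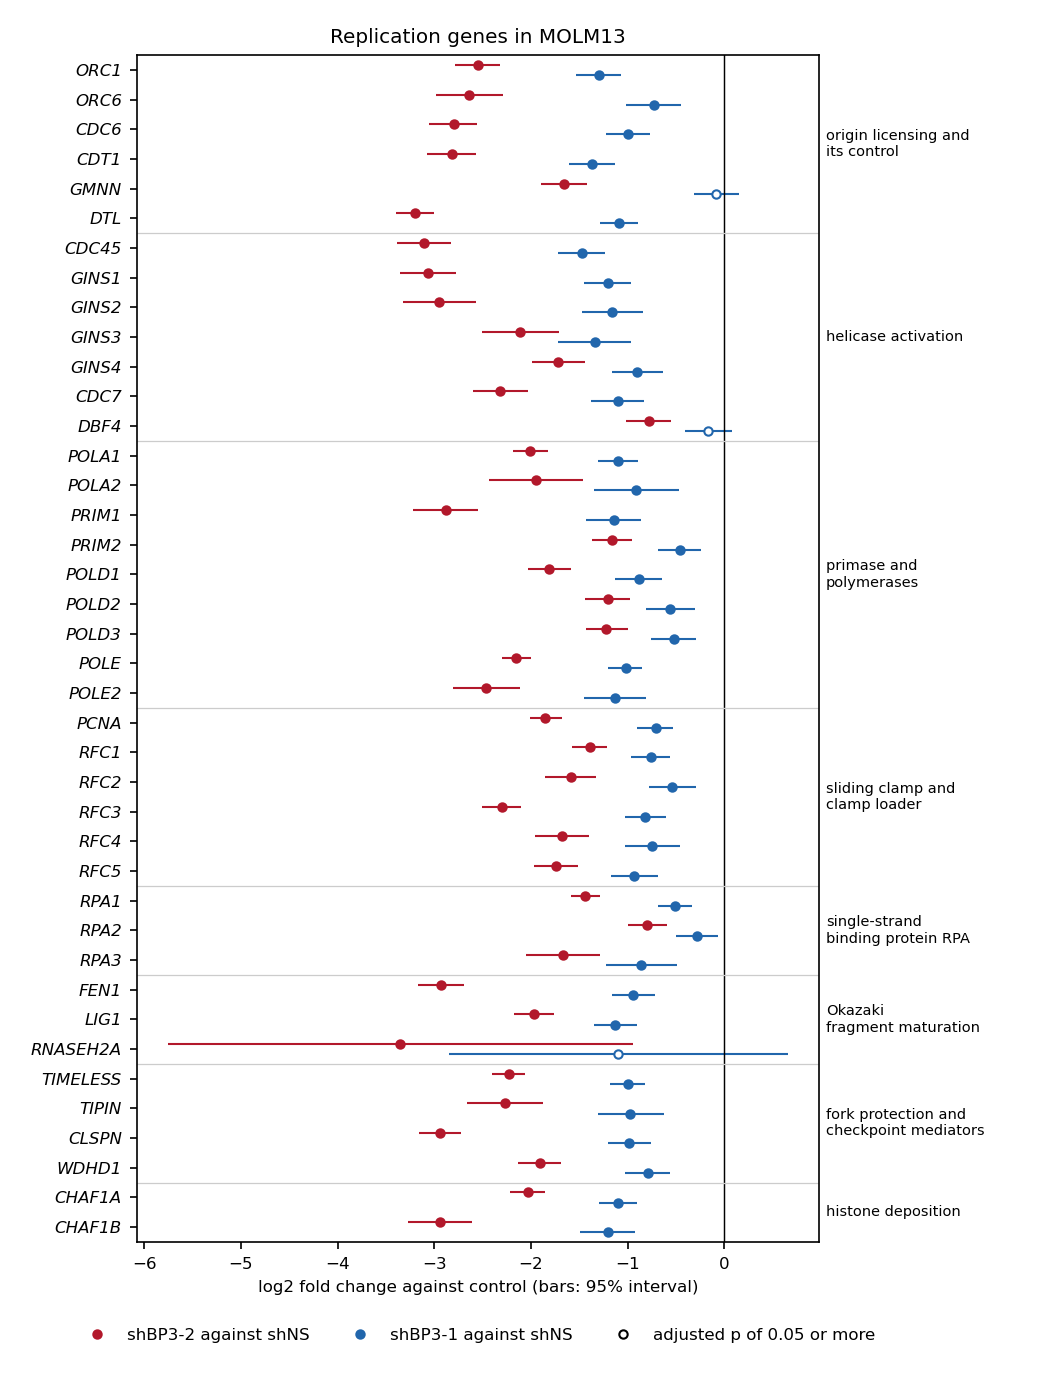
Log2 fold change against shNS of the 40 replication genes in MOLM13, by role, with shBP3-2 and shBP3-1. Points are the authors' values with 95% intervals, open where the adjusted p was 0.05 or more; the shBP3-2 points lie to the left of the shBP3-1 points, with medians of -2.07 and -0.95.

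In U937 BP3-mAID cells the same genes were mixed after 6 h of 5-Ph-IAA. Of 39 tested, 7 were lower (12.3% of all genes) and 9 higher (10.9% of all genes), and their median log2 fold change was 0.08. After 24 h, 36 were lower (19.9% of all genes) and 1, CDC7, was higher (18.9% of all genes), with a median of -0.81 against 0.01 over all genes. The 2 others at 24 h were POLD1 and RFC2. The difference of 24 h minus 6 h was below zero past the threshold for 30 genes (12.1% of all genes) and above it for 1, POLD2 (10.9% of all genes), with a median of -0.88. CDT1, CDC7, POLA1, POLD1, RFC1, RFC2, RPA1 and RPA3 did not pass this test.

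**Figure D2:**
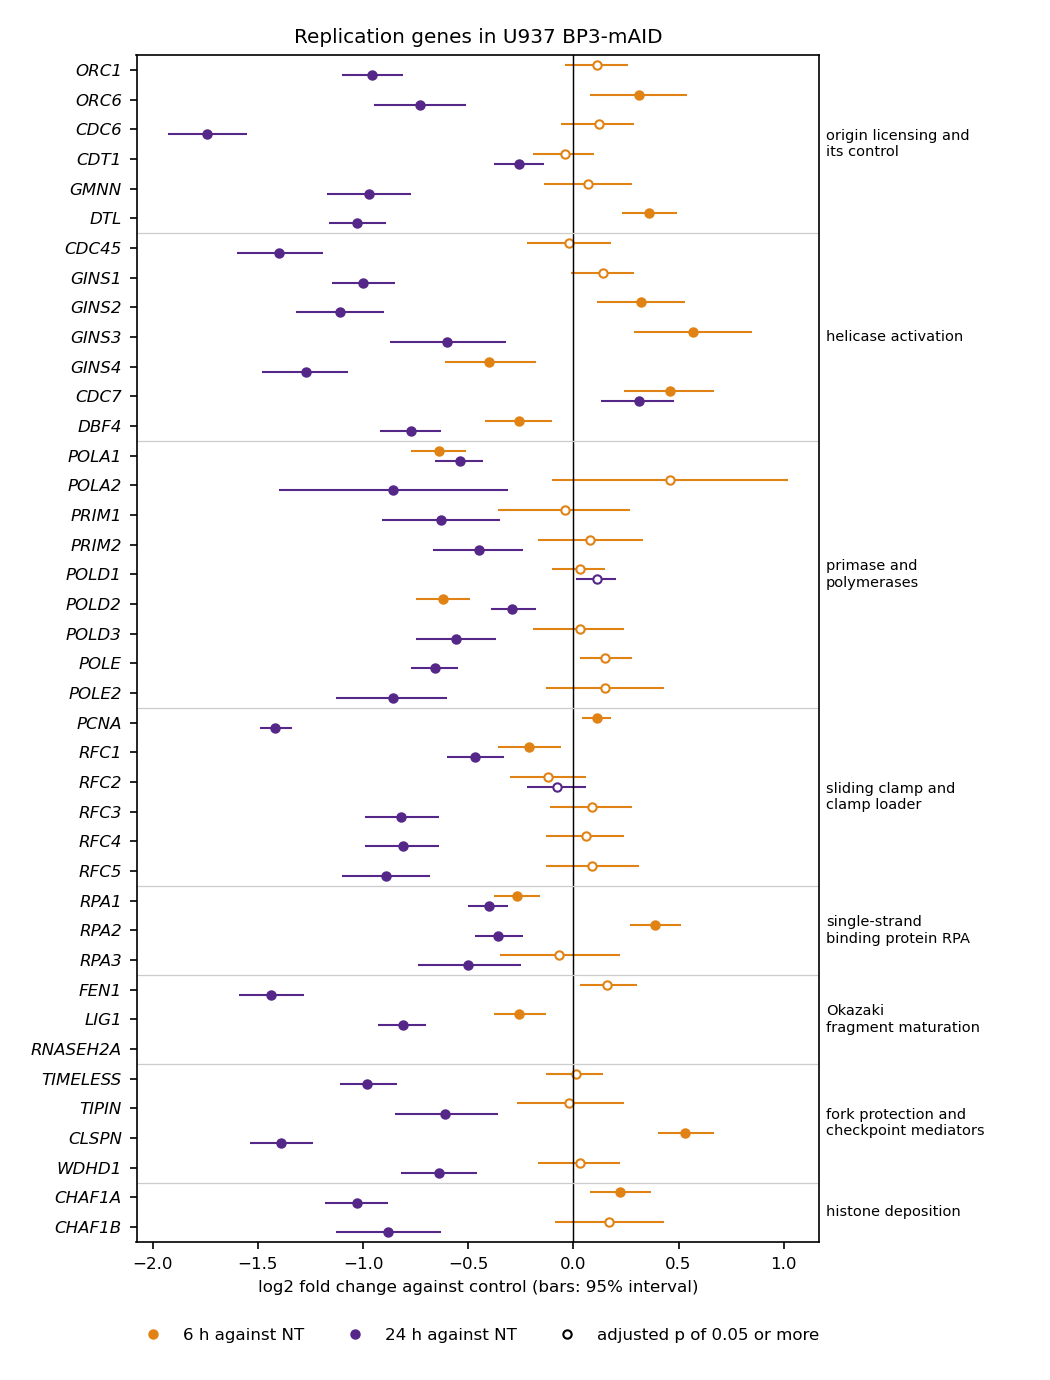
Log2 fold change against NT of the replication genes in U937 BP3-mAID cells after 6 h and 24 h of 5-Ph-IAA, by role. Points are the authors' values with 95% intervals, open where the adjusted p was 0.05 or more; the 6 h points scatter around 0 (median 0.08) and 36 of the 39 points at 24 h are lower. RNASEH2A was not tested.

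The 6 genes of origin licensing are the origin recognition subunits ORC1 and ORC6, the loaders CDC6 and CDT1, the CDT1 inhibitor GMNN (geminin), and DTL, which directs CDT1 to degradation. All 6 were lower with shBP3-2 (22.1% of all genes, median log2 fold change -2.72) and 5 with shBP3-1 (16% of all genes, median -1.04). CDC6 averaged 244.4 normalised reads with shBP3-2 and 853.5 with shBP3-1, against 1706.0 with shNS. DTL averaged 352.5 with shBP3-2 and 1520.2 with shBP3-1, against 3233.0 with shNS. The 3 groups lie in the same order for both genes, with shBP3-2 lowest. DTL reached -3.20 with shBP3-2 and -1.09 with shBP3-1 in the authors' deposited tables (adjusted p 7.6e-216 and 1.9e-26). Its difference between hairpins, -2.11 (95% interval -2.39 to -1.83, adjusted p 9.3e-47), was the largest of the 39 that passed.

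GMNN differed from its group in MOLM13. It averaged 364.8 normalised reads with shBP3-2 and 1090.6 with shBP3-1, against 1153.2 with shNS. The shBP3-1 level lay within the error of the control (log2 fold change -0.08, 95% interval -0.31 to 0.15, adjusted p 0.66 in the authors' deposited table), while CDT1, the protein that geminin binds, stood at 38.6% of shNS in the same libraries (-1.37, adjusted p 1.4e-27). With shBP3-2, GMNN stood at 31.6% and CDT1 at 14.1% of shNS. ORC1, at 17% with shBP3-2 and 40.7% with shBP3-1, and ORC6, at 16.1% with shBP3-2 and 60.1% with shBP3-1, fell with both hairpins.

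In U937, 2 of the 6 licensing genes, DTL and ORC6, were higher at 6 h (10.9% of all genes). The others lay between 97.2% (CDT1) and 108.3% (CDC6) of NT without passing the threshold. At 24 h all 6 were lower (19.9% of all genes). CDC6 averaged 1016.4 normalised reads in NT cells, 1100.9 at 6 h and 303.8 at 24 h. Its 24 h log2 fold change of -1.74 (95% interval -1.93 to -1.55, adjusted p 8.9e-72 in the authors' deposited table) was the lowest of all 39 genes, and its 6 h value of 0.12 did not pass the threshold (adjusted p 0.40). DTL averaged 1713.0 in NT cells, 2198.7 at 6 h and 841.7 at 24 h, so that both times stood outside the error of NT, on opposite sides (0.36 at 6 h and -1.03 at 24 h, with adjusted p of 1.2e-06 and 8.7e-50 in the authors' deposited tables). ORC6 was likewise higher at 6 h and lower at 24 h (0.31 and -0.73, adjusted p 0.033 and 7.9e-10 in the authors' deposited tables). CDT1, at 83.5% of NT at 24 h, was the least changed of the group, and GMNN stood at 51% and ORC1 at 51.6%.

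Helicase activation comprises CDC45, the GINS subunits GINS1 to GINS4, and the CDC7 kinase with its activator DBF4. All 7 were lower with shBP3-2 (22.1% of all genes, median -2.32) and 6 with shBP3-1 (16% of all genes, median -1.16). CDC45, the helicase cofactor, averaged 167.0 normalised reads with shBP3-2 and 518.9 with shBP3-1, against 1439.7 with shNS. GINS1 and GINS2 stood at 12% and 13% of shNS with shBP3-2 and at 43.4% and 44.9% with shBP3-1. GINS3 and GINS4 stood at 23.1% and 30.4% under shBP3-2 and 39.5% and 53.7% under shBP3-1. Some of the exon bases of GINS3 (10.9%) and GINS4 (23.6%) overlap genes on the opposite strand, and whether reads were counted by strand is not given in the sources used here.

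The subunits of the CDC7 kinase had unlike values. CDC7, the catalytic subunit, averaged 202.9 normalised reads with shBP3-2 and 470.9 with shBP3-1, against 1012.1 with shNS. DBF4 averaged 603.0 with shBP3-2 and 925.3 with shBP3-1, against 1037.4 with shNS. Relative to shNS, CDC7 stood at 20% and DBF4 at 58.1% with shBP3-2, and CDC7 at 46.5% and DBF4 at 89.2% with shBP3-1, the last being within error (-0.17, 95% interval -0.41 to 0.08, adjusted p 0.34 in the authors' deposited table). In U937, CDC7 averaged 649.6 in NT cells, 891.7 at 6 h and 802.9 at 24 h, and it was the gene higher at both times (0.46 at 6 h and 0.31 at 24 h, with adjusted p of 0.00036 and 0.0028 in the authors' deposited tables). DBF4 averaged 1407.7 in NT cells, 1178.3 at 6 h and 822.6 at 24 h, and was lower at both (-0.26 at 6 h and -0.77 at 24 h, with adjusted p of 0.0098 and 3.6e-25 in the authors' deposited tables). The difference of 24 h minus 6 h was -0.15 for CDC7 (95% interval -0.43 to 0.13) and -0.52 for DBF4 (adjusted p 2.6e-05).

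The GINS genes, which encode subunits of 1 complex, also had unlike values at 6 h. GINS3 averaged 325.2 normalised reads in NT cells, 482.5 at 6 h and 215.1 at 24 h, and GINS2 averaged 667.1 in NT cells, 833.9 at 6 h and 309.1 at 24 h. Both were higher at 6 h (0.57 and 0.32, adjusted p 0.00072 and 0.013 in the authors' deposited table), GINS3 having the highest 6 h value of the 39 genes. GINS4 was lower at 6 h (-0.40, adjusted p 0.0025 in the authors' deposited table) and GINS1 did not pass (0.14, adjusted p 0.19). At 24 h the 4 stood at 50.1% (GINS1), 46.3% (GINS2), 66.1% (GINS3) and 41.3% (GINS4) of NT, and CDC45 at 38%.

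Primase and the replicative polymerases held 9 genes. All 9 were lower with shBP3-2 (22.1% of all genes, median -1.95) and with shBP3-1 (16% of all genes, median -0.91). They are the polymerase alpha subunits POLA1 and POLA2, the primase subunits PRIM1 and PRIM2, the polymerase delta subunits POLD1 to POLD3, and POLE and POLE2 of polymerase epsilon. PRIM1, the catalytic primase subunit, averaged 114.2 normalised reads with shBP3-2 and 381.7 with shBP3-1, against 843.2 with shNS. PRIM2, its partner, averaged 721.9 with shBP3-2 and 1175.7 with shBP3-1, against 1615.7 with shNS. Relative to shNS, PRIM1 stood at 13.5% and PRIM2 at 44.7% with shBP3-2, and PRIM1 at 45.3% and PRIM2 at 72.8% with shBP3-1, PRIM2 being the highest of the group with either hairpin. PRIM1 shares 16.2% of its exon bases with other genes on its strand and POLA2 shares 35.1%, so part of their reads may have been left uncounted or assigned elsewhere. POLE, the leading-strand polymerase, had the most reads of the group in MOLM13, over 16609 exon bases. Per kilobase of exon POLE averaged 414.4 with shNS, beside 420.8 for POLA1. POLE stood at 22.6% (shBP3-2) and 49.1% (shBP3-1) of shNS. POLD1, POLD2 and POLD3 stood between 28.6% and 43.4% with shBP3-2 and between 54.2% and 69.6% with shBP3-1.

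In U937 this group changed least among those with more than 3 genes, with a median of -0.56 at 24 h. POLA1 averaged 2400.9 normalised reads in NT cells, 1542.6 at 6 h and 1646.2 at 24 h. POLD2 averaged 2344.2 in NT cells, 1524.3 at 6 h and 1921.5 at 24 h. Both were already lower at 6 h (-0.64 and -0.62, adjusted p 2.3e-20 and 1.1e-18 in the authors' deposited table), and they held the lowest 6 h values of all 39 genes. POLD2 was the one gene above its 6 h value at 24 h past the threshold (difference 0.33, 95% interval 0.17 to 0.50, adjusted p 0.00087), and the difference for POLA1 was 0.09 (95% interval -0.08 to 0.27). POLD1, the catalytic subunit of polymerase delta, averaged 2567.6 in NT cells, 2614.6 at 6 h and 2765.8 at 24 h, with a 24 h value of 0.11 (95% interval 0.01 to 0.20, adjusted p 0.070 in the authors' deposited table). POLA2 had the fewest reads of the group, 92.1 in NT cells, 126.5 at 6 h and 50.9 at 24 h, and the widest intervals (0.46 at 6 h, -0.10 to 1.02, and -0.86 at 24 h, -1.40 to -0.31, adjusted p 0.27 and 0.0073 in the authors' deposited tables). The other 5 stood between 55% (POLE2) and 73% (PRIM2) of NT at 24 h, and none of these 5 passed the threshold at 6 h.

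PCNA, the sliding clamp, had the highest level of the 40 genes per kilobase of exon in each group. It averaged 840.0 normalised reads per kilobase with shBP3-2 and 1843.3 with shBP3-1, against 3023.0 with shNS. In U937 it averaged 5443.7 in NT cells, 5866.0 at 6 h and 2034.8 at 24 h. PCNA stood at 27.8% (shBP3-2) and 61% (shBP3-1) of shNS in MOLM13. At 24 h in U937 it stood at 37.4% of NT, with a log2 fold change of -1.42 (95% interval -1.49 to -1.34, adjusted p 3.4e-300 in the authors' deposited table), after a small rise at 6 h (0.11, adjusted p 0.011 in the authors' deposited table). Its difference of 24 h minus 6 h was -1.53 (95% interval -1.63 to -1.43, adjusted p 1.1e-189).

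The RFC genes encode the clamp loader: RFC1, the large subunit that is particular to the PCNA loader, and RFC2 to RFC5, which related loaders share. With PCNA they were all lower with both hairpins (medians -1.71 with shBP3-2 and -0.75 with shBP3-1). Of all genes tested, 22.1% were lower with shBP3-2 and 16% with shBP3-1. RFC3 averaged 493.4 normalised reads with shBP3-2 and 1379.9 with shBP3-1, against 2433.3 with shNS, and was the lowest of the RFC genes with shBP3-2 at 20.3% of shNS. RFC1 was the least changed with shBP3-2, at 38.3%, and RFC2 with shBP3-1, at 68.8%. RFC2 also stood apart in U937, where it averaged 1100.7 in NT cells, 1013.3 at 6 h and 1042.7 at 24 h. Neither time passed the threshold (adjusted p 0.39 and 0.44 in the authors' deposited tables), and the 24 h interval of -0.22 to 0.06 excludes a decline of the size seen for RFC3 (-0.82), RFC4 (-0.81) and RFC5 (-0.89). RFC1 was lower at both times (-0.21 and -0.47, adjusted p 0.032 and 5.8e-11 in the authors' deposited tables).

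The RPA genes had the smallest median declines of the 8 roles with shBP3-2, with shBP3-1 and at 24 h. At 6 h their median, -0.07, was the lowest of the 8 roles. RPA1 to RPA3 encode the trimer that coats single-stranded DNA in replication and in repair. RPA2 averaged 805.8 normalised reads with shBP3-2 and 1152.7 with shBP3-1, against 1399.4 with shNS, so that it kept 57.6% of the shNS level with shBP3-2 and 82.4% with shBP3-1. Its log2 fold changes of -0.80 (shBP3-2) and -0.28 (shBP3-1) still passed the threshold (adjusted p 4.0e-13 and 0.039 in the authors' deposited tables), and its difference between hairpins, -0.52, was the smallest of the 40. RPA1 stood at 37% (shBP3-2) and 70.1% (shBP3-1) of shNS, and RPA3 at 31.4% (shBP3-2) and 55.3% (shBP3-1). In U937, RPA2 averaged 1918.4 in NT cells, 2513.4 at 6 h and 1498.8 at 24 h, above NT at 6 h and below it at 24 h (0.39 and -0.36, adjusted p 1.8e-08 and 2.6e-08 in the authors' deposited tables). RPA1 averaged 2958.7 in NT cells, 2452.1 at 6 h and 2237.6 at 24 h and was lower at both times (-0.27 and -0.40, adjusted p 2.9e-05 and 5.3e-15 in the authors' deposited tables). RPA3 did not pass at 6 h (-0.07, adjusted p 0.82 in the authors' deposited table) and stood at 70.9% of NT at 24 h.

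Okazaki fragment maturation was represented by the flap nuclease FEN1, the ligase LIG1 and RNASEH2A, the catalytic subunit of RNase H2, which removes ribonucleotides. FEN1 averaged 254.1 normalised reads with shBP3-2 and 1009.0 with shBP3-1, against 1934.6 with shNS. Its difference between hairpins was -1.99 (95% interval -2.31 to -1.67, adjusted p 2.8e-31). LIG1 averaged 539.4 with shBP3-2 and 964.0 with shBP3-1, against 2107.4 with shNS. With shBP3-2 FEN1 stood at 13.1% and LIG1 at 25.6% of shNS, and with shBP3-1 FEN1 stood at 52.2% and LIG1 at 45.7%. In U937, FEN1 averaged 1775.4 in NT cells, 1985.2 at 6 h and 654.7 at 24 h, and LIG1 averaged 2555.1 in NT cells, 2136.3 at 6 h and 1456.0 at 24 h. FEN1 did not pass at 6 h (0.16, adjusted p 0.072) while LIG1 was lower (-0.26, adjusted p 0.00053), and 24 h values were -1.44 and -0.81 (adjusted p 2.4e-73 and 3.6e-42) in the authors' deposited tables.

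RNASEH2A had very few reads, 1.54 with shBP3-2 and 7.3 with shBP3-1, against 15.6 with shNS, and 1.09 in NT cells, 2.65 at 6 h and 1.95 at 24 h. Its shBP3-2 value of -3.35, the lowest point estimate of the 40, therefore has a 95% interval of -5.76 to -0.94 (adjusted p 0.018 in the authors' deposited table), and the shBP3-1 value of -1.10 did not pass (adjusted p 0.38 in the authors' deposited table). In the GENCODE 29 annotation it shares 30.8% of its exon bases with THSD8 on the same strand, and how reads in shared exons were counted is not given in the sources used here, so its level is uncertain.

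Fork protection and checkpoint signalling were represented by TIMELESS and TIPIN, which travel with the fork as a pair, CLSPN (claspin), the mediator of CHK1 activation, and WDHD1, which links the helicase to polymerase alpha. All 4 were lower with both hairpins, with medians of -2.25 (shBP3-2) and -0.97 (shBP3-1). Of all genes tested, 22.1% were lower with shBP3-2 and 16% with shBP3-1. CLSPN averaged 392.4 normalised reads with shBP3-2 and 1528.2 with shBP3-1, against 3012.5 with shNS, and its difference between hairpins was -1.96 (95% interval -2.27 to -1.65, adjusted p 1.8e-33). TIMELESS and TIPIN had close values, 21.4% and 20.8% of shNS with shBP3-2 and 50.1% and 51.1% with shBP3-1, and WDHD1 stood at 26.6% with shBP3-2 and 57.7% with shBP3-1. In U937, CLSPN averaged 1475.6 in NT cells, 2136.0 at 6 h and 563.0 at 24 h. It was higher at 6 h and lower at 24 h (0.53 and -1.39, adjusted p 3.0e-13 and 7.2e-69 in the authors' deposited tables), and its difference of 24 h minus 6 h, -1.92 (95% interval -2.13 to -1.72, adjusted p 1.8e-73), was the largest of the 39. TIMELESS, TIPIN and WDHD1 stood between 99% and 101.8% of NT at 6 h and at 50.9%, 65.7% and 64.1% at 24 h. TIPIN shares 21% of its exon bases with the pseudogene RPL9P25, on the same strand.

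CHAF1A and CHAF1B, the subunits of the chromatin assembly factor that PCNA brings to new DNA, were lower with both hairpins. CHAF1A averaged 807.9 normalised reads with shBP3-2 and 1544.9 with shBP3-1, against 3308.1 with shNS. CHAF1B averaged 107.6 with shBP3-2 and 358.4 with shBP3-1, against 824.4 with shNS, which is 13% of shNS with shBP3-2, beside 24.4% for CHAF1A, and 43.5% with shBP3-1, beside 46.7% for CHAF1A. In U937, CHAF1A averaged 1651.3 in NT cells, 1927.6 at 6 h and 809.9 at 24 h, higher at 6 h and lower at 24 h (0.22 and -1.03, adjusted p 0.015 and 1.9e-40 in the authors' deposited tables). CHAF1B stood at 112.5% of NT at 6 h, which did not pass (adjusted p 0.41 in the authors' deposited table), and at 54.4% at 24 h.

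**Figure D3:**
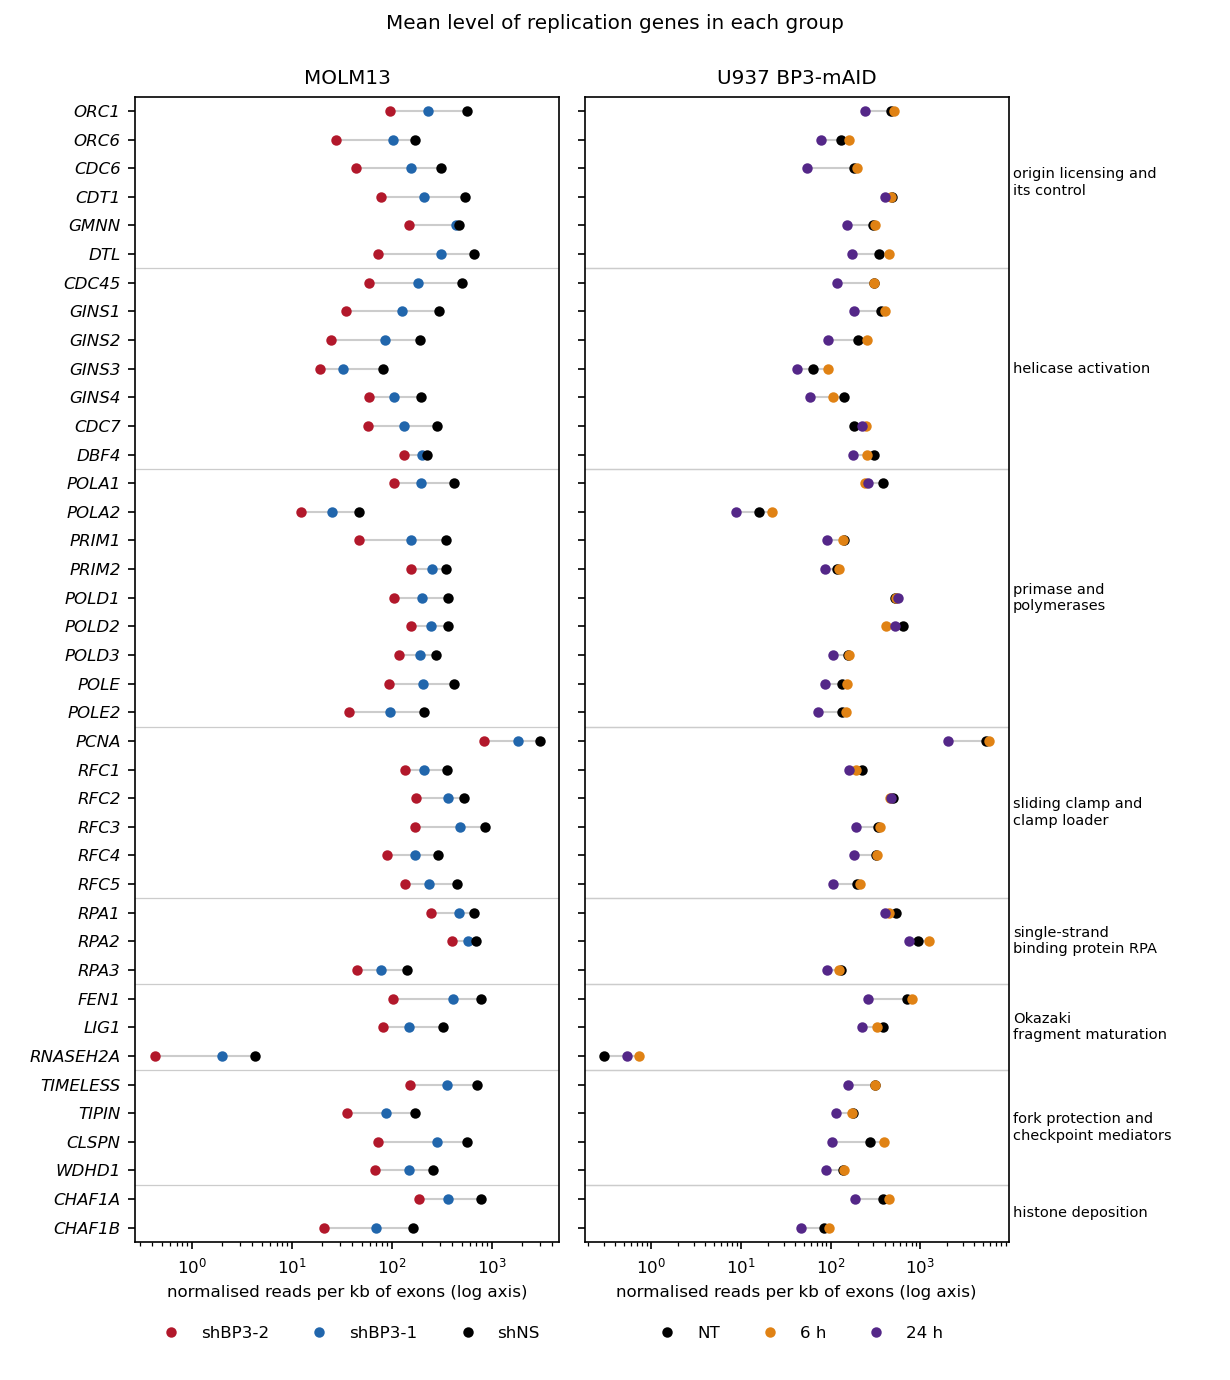
Mean normalised reads per kilobase of exon (log axis) of the 40 replication genes in each group of MOLM13 and U937 BP3-mAID, by role; each point is a mean of 2 libraries worked out from the authors' tables, with no error bar. PCNA is highest and RNASEH2A lowest, and in MOLM13 the groups run shBP3-2, shBP3-1, shNS from left to right for each gene.

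A wider list of 34 replication genes that are not among the 40 gave smaller medians. It had 28 lower and 2 higher with shBP3-2 (median -1.26), where 22.1% of all genes tested were lower and 19.4% higher. With shBP3-1 it had 22 lower and 1 higher (median -0.70), where 16% of all genes were lower and 17.7% higher. At 6 h it had 10 lower and 3 higher of 31 tested (median -0.03), where 12.3% of all genes were lower and 10.9% higher. At 24 h it had 18 lower and 4 higher of 32 tested (median -0.28), where 19.9% of all genes were lower and 18.9% higher. Its lowest values with shBP3-2 were those of the initiation factor MCM10 (-3.25), DSCC1 of an alternative clamp loader (-2.92) and TICRR, which helps load CDC45 (-2.85), and at 24 h those of DSCC1 (-1.70), the PCNA partner PCLAF (-1.61) and the nuclease DNA2 (-1.29), all from the authors' deposited tables. POLD4 had the highest value with shBP3-2 (1.43, adjusted p 6.1e-04) and at 24 h (1.35, adjusted p 0.081), in the authors' deposited tables. It had few reads, 41.9 with shNS in the shBP3-2 comparison and 9.34 in NT cells in the 24 h comparison. The other origin recognition subunits, ORC2 to ORC5, had small values in MOLM13. With shBP3-2 they lay between -0.35 (ORC5) and 0.25 (ORC4), of which ORC2 and ORC5 passed the threshold, and with shBP3-1 between -0.14 and 0.17 with none past the threshold, in the authors' deposited tables. In U937, ORC3 was lower at 6 h (-0.49, adjusted p 0.0046) and the other 3 did not pass, while at 24 h ORC5 was higher (0.48, adjusted p 7.9e-05), ORC2 and ORC3 were lower (-0.42 and -0.28, adjusted p 0.00011 and 0.036) and ORC4 did not pass, by the authors' deposited tables. RNASEH2C, a partner of RNASEH2A, was higher with shBP3-2 (0.49), at 6 h (0.24) and at 24 h (0.47) and lower with shBP3-1 (-0.71) in the authors' deposited tables.

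The helicase genes MCM2 to MCM7 had values close to those of the 40 in MOLM13, with all 6 lower under each hairpin (medians -2.30 with shBP3-2 and -1.09 with shBP3-1). Over all genes tested, 22.1% were lower with shBP3-2 and 16% with shBP3-1. In U937, 3 of the 6 MCM genes were higher at 6 h (median 0.10), where 10.9% of all genes were higher. At 24 h, 4 were lower and 1 higher (median -0.53), where 19.9% of all genes were lower and 18.9% higher. A list of 12 mitotic genes, which mark cells in G2 and mitosis, declined beside the replication genes in MOLM13, with 12 lower with shBP3-2 (median -2.67) and 11 with shBP3-1 (median -0.98). In U937 at 6 h, 3 of the mitotic genes were lower (12.3% of all genes) and 0 higher (10.9% of all genes), at a median of -0.04. At 24 h the list went the other way from MOLM13, at a median of 0.45. Then 7 were higher (18.9% of all genes) and 1 lower (19.9% of all genes). PLK1, a mitotic kinase, reached 1.33 and CDC20, an activator of the anaphase-promoting complex, 1.04, while CDK1 was lower (-0.25), in the authors' deposited table. The share of cells in each phase was not measured, and its part in these results was not tested.

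**Figure D4:**
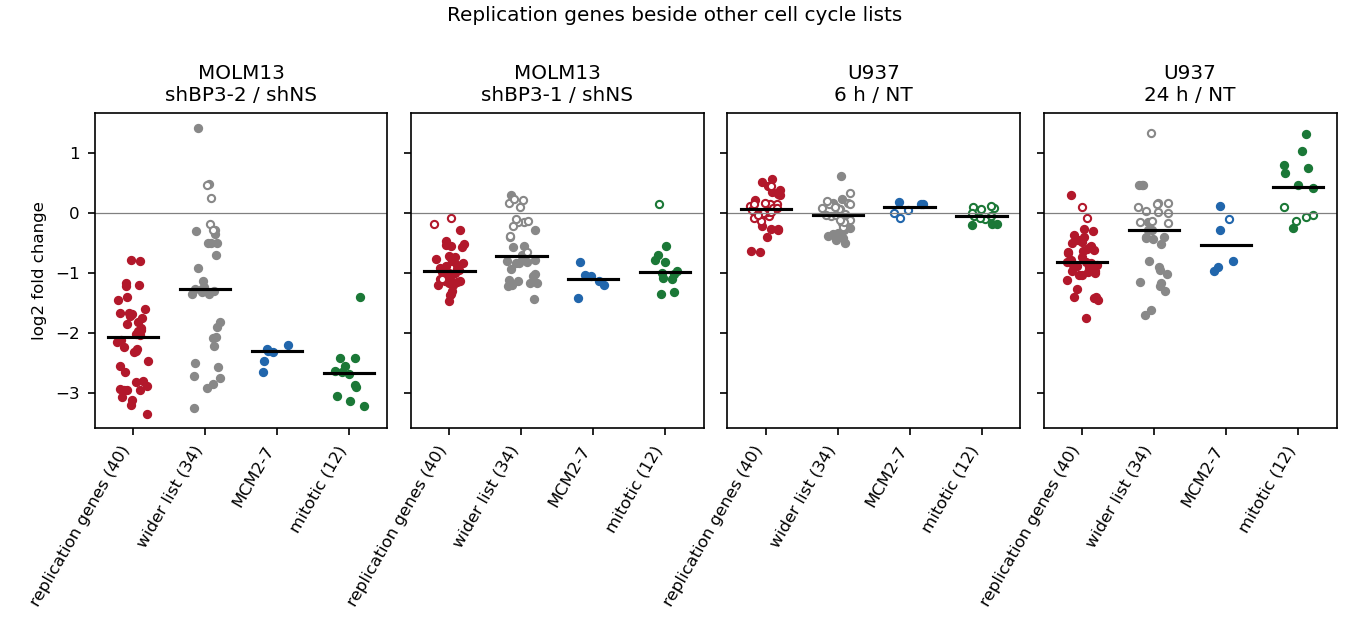
Log2 fold change of the 40 replication genes, the wider replication list of 34 genes, MCM2 to MCM7 and 12 mitotic genes in the 4 comparisons. Each point is a gene, open where the adjusted p was 0.05 or more, and bars are medians; at 24 h the replication genes have a median of -0.81 and the mitotic genes one of 0.45.

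Differences between the medians of the roles were not tested. With shBP3-2 the lowest were Okazaki fragment maturation (-2.93, which includes the sparse RNASEH2A), licensing (-2.72) and histone deposition (-2.49), and the least low were the clamp and its loader (-1.71) and RPA (-1.44). With shBP3-1 all roles lay between -1.16 (helicase activation) and -0.51 (RPA). At 24 h in U937 they ran between -1.12 (Okazaki fragment maturation) and -0.40 (RPA), and at 6 h between -0.07 (RPA) and 0.20 (histone deposition).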

How the data were processed

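The tools named in the submitters' processing notes are cutadapt 4.1, HISAT2 2.1.1 (build hg38), HTSeq 2.0.2 and DESeq2. The unit of signal here is the DESeq2 base mean as deposited, per the file headers. The log2 fold changes and the adjusted p-values are those the authors deposited. The annotation release, the counting mode and any shrinkage of fold changes are not given in the sources used here. No values per library were held, so the edgeR test that would have been used on counts was replaced by the authors' DESeq2 statistics, the case planned for such tables.

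A gene was called at an adjusted p under 0.05 over all genes of its table. The Benjamini-Hochberg adjustment was inverted to obtain raw p-values, which gives an upper bound where values are tied, and standard errors followed from fold change and p under a normal (Wald) test. Group means followed from base mean and fold change, and both tables of a line were put on 1 scale through their shared controls (ratio 0.978 over 4621 genes in MOLM13 and 1.05 over 2869 in U937). Differences between hairpins and between times were tested as the difference of the fold changes over the root of the summed squared errors, two-sided, with Benjamini-Hochberg adjustment over all genes. The procedure was tested on simulated data. The median standard error of the 40 genes was 0.12 in MOLM13 and 0.09 in U937. The lowest base mean tested was 2.46 (shBP3-2), 10.43 (shBP3-1), 16.44 (6 h) and 6.52 (24 h).

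The genes and lists were chosen with earlier results of these data known. In each comparison and role the genes with the lowest and highest fold change, those against their group and those that missed the threshold were named, and others were added to complete the roles. Some marker genes of the lists are not reported here. Lengths and overlaps came from GENCODE 29, and promoter sequences from RefSeq (GRCh38.p14), matched by symbol. Alternatives were a threshold of 0.01, a minimum of 1.5-fold, centring on the median gene, a base mean of at least 50, Holm adjustment and a smaller error for the shared control. Computation used python 3.11.15, numpy 2.4.6, pandas 2.3.3 and scipy 1.17.1.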

Additional observations from a re-analysis of the deposited data

Results flagged for a closer look

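The response of the replication genes differed between the hairpins by a test of the difference itself. Under shBP3-2, 39 genes were lower than under shBP3-1, where 18.2% of all genes were lower and 9.11% higher. Among these 39, the largest differences in log2 fold change were those of DTL (-2.11), FEN1 (-1.99) and CLSPN (-1.96). IGF2BP3 mRNA itself stood at 48.8% of shNS with shBP3-2 and 40% with shBP3-1. The 95% intervals of its log2 fold change were -1.22 to -0.85 and -1.55 to -1.10. Whether IGF2BP3 mRNA differed between the hairpins was not tested.

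In U937 the response differed between the times, with 30 genes lower at 24 h than at 6 h (12.1% of all genes). Among those 30, CLSPN (-1.92), CDC6 (-1.86) and FEN1 (-1.60) differed most. POLD2 alone was higher at 24 h than at 6 h (0.33), where 10.9% of all genes were higher.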

How the results depend on the processing

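No paired analysis was possible because the tables hold no values per library, and for the same reason no replicate could be left out in turn. The counts of lower genes with shBP3-2 (39 to 40), with shBP3-1 (31 to 37) and at 24 h (27 to 36), and those of the differences between hairpins (37 to 39) and between times (29 to 34), stayed within 1.5 times the reported count under the alternatives run. The 6 h counts did not. Of the 9 higher genes at 6 h, the count was 5 at an adjusted p under 0.01, 0 with at least 1.5-fold and 3 with Holm adjustment, and of the 7 lower ones 2 with at least 1.5-fold and 3 with Holm adjustment. The single gene higher at 24 h, CDC7, gave a count of 0 with at least 1.5-fold and with Holm adjustment. After centring, TIMELESS at 6 h changed sign, to -0.01. Each comparison rests on 2 libraries a group, whose spread is seen only through the authors' p-values.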
